A study of Mus musculus with 12 samples.

Results

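Liver organoids in which Yap was kept on were compared with 3 control libraries that carry strong macrophage and mature hepatocyte signals. The members are 6 of the 12 arrays of a mouse study: the 3 libraries titled Yap Organoid Plus Dox and the 3 never-induced libraries chosen by their measured level of the macrophage gene Lyz2, above 9 on the log2 scale. The controls chosen in this way are the libraries labelled hepatocyte 2, wild-type organoid 1 and wild-type organoid 3. Their labels are therefore mixed, and the group corresponds to no label of the study. By its labels it joins 1 library of sorted cells and 2 libraries of cultured organoids, so that culture, Yap and cell makeup cannot be told apart in the contrast.

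All libraries came from mice of the C57Bl6 background. The Yap-on organoids had Yap switched on for 3 weeks in the animal and then for 2 weeks in culture, where doxycycline was present. The wild-type organoids were also cultured for 2 weeks, under conditions the labels call wild-type, and the hepatocyte libraries are YFP-positive liver cells obtained by FACS from uninduced animals. A further group, the Yap-off organoids, had the same 3 weeks of Yap in the animal and 2 weeks in culture without doxycycline. The labels name neither the promoter that drives the Yap transgene, nor the age and sex of the animals, nor whether replicates are separate animals. A p-value here therefore covers the spread among the libraries, possibly a technical one, and the small number of arrays limits its precision.

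Yap is a transcriptional coactivator held in check by the kinases of the Hippo pathway. When it enters the nucleus it binds TEAD factors and turns on target genes such as Ccn2 and Ankrd1, and in the liver its activity is high in bile duct cells and low in hepatocytes. Hepatocytes make most plasma proteins and carry the enzymes of the urea cycle and of drug metabolism. Kupffer cells, the resident macrophages, and sinusoidal endothelial cells line the blood spaces beside them.

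Every value below is a log2 intensity of Affymetrix MoGene 1.0 ST arrays or a difference of such values, and a log2 difference of 1 is a doubling. Lyz2, a lysozyme of myeloid cells, stood at 2.59, 3.04 and 3.11 in Yap-on 1 to 3, and at 12.04, 11.56 and 12.16 in the libraries labelled hepatocyte 2, wild-type organoid 1 and wild-type organoid 3. The groups lay far apart, as the choice of the controls requires. The member nearest to the threshold of 9 from above was wild-type organoid 1 (11.56), and the nearest control left out was hepatocyte 3 (6.30). Cyp2e1, a cytochrome P450 of mature hepatocytes, was at 2.85, 2.80 and 2.86 in the Yap-on libraries and at 10.14, 10.03 and 9.90 in the controls. These 2 genes mark the controls, no p-value is given for them, and they are counted among the members of their lists.

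Because a measured level chose the controls, differences from them are given as descriptions, with the standard error (SE) of a limma fit on the 6 arrays and no p-value. That fit separated 6381 of 19937 genes at an adjusted p under 0.05, a background of 32.0%, with 4195 higher (21.0%) and 2186 lower (11.0%) in the Yap-on organoids. Counts of list members called in this fit are likewise descriptions of the chosen controls, to be read beside these shares. Tests were taken from groups given by the labels alone: the Yap-on organoids against all 6 never-induced libraries, and the Yap-on against the Yap-off organoids. Against all 6 controls limma called 1053 genes (5.28%), 791 higher (3.97%) and 262 lower (1.31%). These 6 pool the Lyz2-high with the other never-induced libraries and, by label, sorted cells with cultured organoids. A gene on which the pooled libraries differ has a wide spread within the group. For such a gene, not passing against all 6 does not show that levels were equal. Against the Yap-off organoids limma called 6212 genes (31.2%), 3817 higher (19.1%) and 2395 lower. Where the spread of all 12 arrays was used, the total fell to 2283 (11.5%), with 1413 higher and 870 lower. The words rose and fell are kept for genes called in one of these tests, and adjusted p-values are limma's with Benjamini-Hochberg adjustment over all genes.

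Across all genes, which are not independent replicates, the Yap-on libraries correlated with each other at r from 0.9923 to 0.9954 and the Lyz2-high controls at 0.9357 to 0.9695. Between both groups r lay between 0.7691 and 0.7964. The Yap-on libraries were nearer to the 3 Lyz2-low controls, labelled hepatocyte 1, hepatocyte 3 and wild-type organoid 2, at 0.9007 to 0.9380. The controls did not group by label. Hepatocyte 2 correlated at 0.9357 and 0.9514 with wild-type organoid 1 and 3 and at 0.8218 and 0.8256 with hepatocyte 1 and 3. Wild-type organoid 2 correlated at 0.9532 and 0.9550 with hepatocyte 1 and 3 and at 0.8161 and 0.7996 with wild-type organoid 1 and 3. Libraries are named by their labels throughout, and whether labels were exchanged was not tested.

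**Figure D1:**
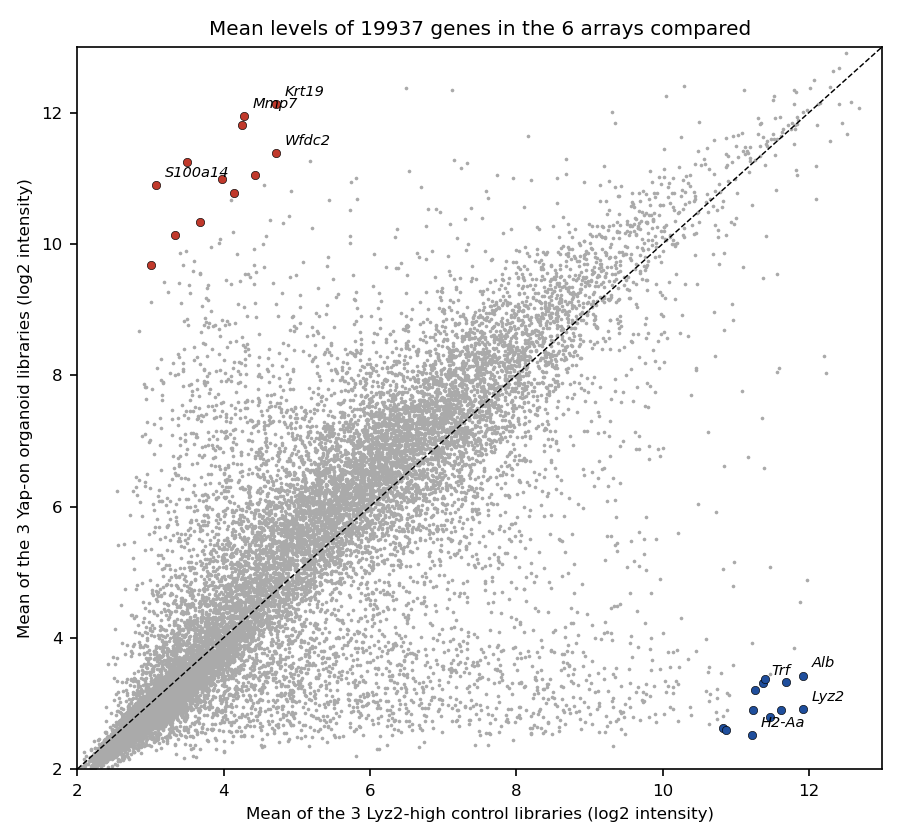
Mean level of each of 19937 genes in the 3 Lyz2-high control libraries (horizontal axis) against the 3 Yap-on libraries (vertical axis), both as log2 intensity. Alb and Lyz2 lie low on the vertical and high on the horizontal axis, and S100a14 and Krt19 lie the other way.

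Yap1, the mouse gene for Yap, stood at 7.45, 7.40 and 7.28 in the Yap-on libraries and at 4.93, 6.70 and 5.96 in the Lyz2-high controls, a difference of 1.51 (SE 0.42). The Lyz2-low controls, at 7.20, 7.07 and 7.50, overlapped the Yap-on values. Against all 6 controls the difference was 0.82 (SE 0.52, adjusted p = 0.388), and against the Yap-off organoids 0.23 (adjusted p = 0.237). Whether the array's Yap1 probes detect the transgene is unknown from the labels, so this level is no check of them.

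Most plasma protein genes were lower in the Yap-on organoids than in every control. Albumin (Alb), the most abundant plasma protein, stood at 3.68, 3.29 and 3.31 in the Yap-on libraries and at 11.53, 12.23 and 12.01 in the Lyz2-high controls. The log2 difference was -8.50 (SE 0.21). The Lyz2-low controls were as high, at 12.33, 12.13 and 11.94. Tested against all 6 controls, Alb fell by 8.60 (SE 0.18, adjusted p = 9.96e-08). Transferrin (Trf), the iron carrier, fell by 8.35 in the same test (SE 0.21, adjusted p = 1.24e-07). The Yap-on values of these genes are near the lowest on the arrays, so background limits the size of their falls.

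The promoters of Alb and of Fga, the fibrinogen alpha chain, are printed because both genes lay below all 6 controls in every Yap-on library. Each is the RefSeq sequence of GRCm38.p6 from 250 bases before to 50 bases after the gene's start, Alb at chr5:90460620-90460919 on the plus strand and Fga at chr3:83025903-83026202 on the plus strand. Capitals mark the letters GTTAAT or, on the other strand, ATTAAC, which are part of the site of HNF1, a liver transcription factor.
Alb: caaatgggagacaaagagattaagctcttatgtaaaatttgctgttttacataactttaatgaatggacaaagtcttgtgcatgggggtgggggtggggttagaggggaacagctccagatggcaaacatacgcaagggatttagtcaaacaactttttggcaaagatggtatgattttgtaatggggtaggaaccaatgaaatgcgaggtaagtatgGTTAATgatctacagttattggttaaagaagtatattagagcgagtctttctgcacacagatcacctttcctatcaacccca
Fga: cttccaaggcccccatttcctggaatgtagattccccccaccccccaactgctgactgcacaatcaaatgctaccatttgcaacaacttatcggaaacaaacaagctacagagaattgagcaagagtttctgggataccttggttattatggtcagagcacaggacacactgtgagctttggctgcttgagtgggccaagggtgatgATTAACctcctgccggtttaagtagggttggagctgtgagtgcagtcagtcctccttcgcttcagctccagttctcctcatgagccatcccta
The letters begin 32 bases before the start of Alb and 43 bases before that of Fga. Of the 12 genes with the widest gap below all controls, 9 had a promoter in the table and 6 of these (66.7%) held the letters, against 7.1% of all 32851 promoters. Of the 12 with the widest gap above all controls, 10 had a promoter and 0 held them. A match is a description of letters and no evidence of binding.

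Fga itself stood at 2.94, 3.29 and 3.15 in the Yap-on libraries and at 11.52, 10.82 and 10.37 in the Lyz2-high controls. It fell against all 6 controls by 7.88 (SE 0.24, adjusted p = 3.3e-07). The other fibrinogen chains, Fgg and Fgb, fell by 7.64 and 7.81. Haptoglobin (Hp), which binds free haemoglobin, fell by 7.93, and fetuin (Ahsg), a carrier of calcium phosphate, by 8.01 (SE 0.52, adjusted p = 2.66e-05). The protease inhibitor Serpina1c fell by 8.16, vitronectin (Vtn) by 6.65, kininogen (Kng1) by 7.10, Pzp, a broad protease inhibitor, by 7.12 and the retinol carrier Rbp4 by 6.79. In each of these genes the lowest of the 6 controls stood above the highest Yap-on library.

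Of 27 measured genes for secreted liver proteins, 24 were called lower and 1 higher in the fit on the 6 arrays. The list median was -6.37, beside -0.04 over all genes. In the test against all 6 controls 18 fell and 0 rose. Against the Yap-off organoids 27 fell, or 24 with the spread of all 12 arrays. Transthyretin (Ttr), the thyroid hormone carrier, was an exception, named after its values were seen. It stood at 11.20, 11.32 and 11.29 in the Yap-on libraries, within the range of the Lyz2-high controls at 10.41, 11.77 and 11.59. Ambp, the precursor of a plasma protease inhibitor, and Apob, the scaffold of lipoproteins, were also named for being exceptions. Ambp was 0.79 higher than in the Lyz2-high controls (SE 0.18) and Apob differed by -0.34 (SE 0.42).

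Metabolic enzymes were lower in the Yap-on organoids than in the Lyz2-high controls, and fewer of them were lower than in all controls. Of 29 measured genes 23 were called lower and 0 higher, with a list median of -3.72. In the test against the Yap-off organoids 26 fell and 1 rose, or 18 and 0 with the spread of all 12 arrays. Cps1, the first enzyme of the urea cycle, stood at 2.89, 2.95 and 3.01 in the Yap-on libraries and at 9.32, 9.40 and 9.94 in the Lyz2-high controls. The Lyz2-low controls were split, with 9.23 and 9.83 in those labelled hepatocyte and 5.07 in wild-type organoid 2. It fell against all 6 controls by 5.85 (SE 1.00, adjusted p = 0.0104), but the call was lost without each Yap-on library in turn (adjusted p from 0.0509 to 0.0599). In that test 3 of the 29 genes fell and 0 rose, and 10 had every Yap-on library below all 6 controls, beside 7.16% of all genes. The others, named because there are few, were Tat, an enzyme of tyrosine breakdown (-5.68), and Gnmt, a methyltransferase (-3.15). The call of Gnmt was lost with the replicate block and without any 1 of 6 libraries (adjusted p from 0.0508 to 0.125). The number that fell ranged from 1 to 10 when each library was left out in turn and was 2 with the replicate number as a block.

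Further members of the enzyme list show how the controls differ. The alcohol dehydrogenase Adh1 was at 2.79, 2.67 and 3.13 in the Yap-on libraries, and at 8.92, 9.35 and 10.10 in the Lyz2-high controls. In wild-type organoid 2 it stood at 2.83, within the Yap-on range, while hepatocyte 1 and 3 were at 9.37 and 9.22. Mat1a, which makes S-adenosylmethionine, and Hpd, an enzyme of tyrosine breakdown, were 5.93 and 5.66 lower than in the Lyz2-high controls (SE 0.36 and 0.33). Pck1, which controls the making of glucose, was 5.88 lower (SE 0.41). None of these 4 genes passed against all 6 controls, where adjusted p ranged from 0.0548 for Mat1a to 0.225 for Pck1.

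Liver transcription factors moved in both directions. Of 18 measured, 9 were called higher and 6 lower than in the Lyz2-high controls. Cebpa, a factor that maintains hepatocyte genes, stood at 5.42, 5.42 and 5.06 in the Yap-on libraries and at 8.65, 7.84 and 8.43 in the Lyz2-high controls. All 6 controls lay above all Yap-on libraries, and Cebpa fell by 2.45 (SE 0.38, adjusted p = 0.00586). Cebpb, Nr5a2 and Foxa1, named because few passed, fell by 1.44, 1.71 and 0.92, and Tbx3 rose by 1.41. Without each Yap-on library in turn, and with the replicate block, all 4 of these calls were lost. In each of those fits 1 gene of the list, Cebpa, fell and 0 rose. Counting the block and every fit without 1 library, Nr5a2 and Foxa1 each lost the call in 8, Tbx3 in 7 and Cebpb in 4. Where a call was lost, adjusted p ranged from 0.0517 to 0.198. The call of Foxa1 was also lost with the spread of all 12 arrays (adjusted p = 0.0596). Hnf4a, a central regulator of hepatocyte genes, was named after its values were seen. It stood at 8.56, 8.64 and 8.42 in the Yap-on libraries against 7.16, 6.56 and 7.43, a difference of 1.49 (SE 0.23) in the direction opposite to the plasma proteins. It did not pass against all 6 controls (0.75, adjusted p = 0.391).

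Of the 9 factors called higher, 5 further ones are named for the size of their difference. Sox9, a factor of bile duct and progenitor cells, stood at 8.16, 8.11 and 8.88 in the Yap-on libraries and at 4.40, 5.20 and 5.30 in the Lyz2-high controls, a difference of 3.42 (SE 0.32). Onecut2 differed by 4.37, Foxa2 by 3.14, the bile acid receptor Nr1h4 by 2.80 and Sox4 by 2.37. The Lyz2-low controls, at 8.18, 7.90 and 8.09 for Sox9, lay close to the Yap-on libraries, and none of these 5 genes passed against all 6 controls (adjusted p from 0.252 for Onecut2 to 0.592 for Sox4).

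Macrophage transcripts were near the lowest levels of the array in the Yap-on organoids. Of 26 measured macrophage and Kupffer cell genes 25 were called lower than in the Lyz2-high controls and 0 higher, with a list median of -7.06. Since Lyz2 chose the controls, this count describes the choice. The summed level of the list, as log2, was 10.18 to 10.40 in the Yap-on libraries, 14.89 to 15.75 in the Lyz2-high controls and 9.65 to 9.99 in the Lyz2-low controls. In single arrays the list median was 3.08 to 3.29 in the Yap-on libraries, 10.22 to 11.09 in the Lyz2-high controls and 3.24 to 4.34 in the Lyz2-low controls. Of the 26, limma called 0 against all 6 controls in either direction (6 at an unadjusted p under 0.05), and 12 had every Yap-on library below all 6 controls, beside 7.16% of all genes. Lyz2 itself is among the 6 and the 12. In bulk samples fewer cells of a type and less RNA per cell cannot be told apart.

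Of the 12 largest differences downward from the Lyz2-high controls, 9 were in genes of immune cells. Vsig4, a complement receptor of Kupffer cells, stood at 2.62, 2.86 and 2.89 in the Yap-on libraries and at 11.75, 10.97 and 11.67 in the controls, a difference of -8.67 (SE 0.23). Cd5l, a secreted macrophage protein, differed by -8.28 and the complement subunit C1qb by -8.07. Wfdc17, a myeloid secreted protein, differed by -8.72, the leukocyte surface peptide Cd52 by -8.37 and S100a8, a neutrophil calcium-binding protein, by -8.03. Their levels in the 3 Lyz2-low controls were from 2.79 (Cd5l in wild-type organoid 2) to 5.66 (Wfdc17 in hepatocyte 3). The remaining members of the 12 were Lyz2, the antigen-presentation genes H2-Aa and Cd74, and the plasma protein genes Alb, Serpina1c and Trf.

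Further macrophage genes kept the same arrangement. Adgre1, which encodes the F4/80 antigen, was at 2.71, 2.71 and 2.79 against 10.48, 9.51 and 10.63. Clec4f, a lectin of Kupffer cells, was at 3.31, 3.58 and 3.55 against 10.65, 10.24 and 10.97. The scavenger receptor Cd163, the mannose receptor Mrc1, the phosphatidylserine receptor Timd4, the folate receptor Folr2, C6 and the Kupffer cell factor Spic all averaged below 3.4 in the Yap-on libraries and differed by -5.59 to -7.95. Tyrobp, Fcer1g, Laptm5, C1qa and C1qc differed by -7.37 to -8.03. Mpeg1, Fcgr1 and Il18bp differed by -6.98, -4.80 and -4.59. Csf1r, the receptor for the macrophage growth factor, was at 4.70, 4.79 and 4.87 against 11.28, 10.46 and 11.15.

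Several of these genes remained well above the lowest levels in the Yap-on organoids. Cd14, a receptor for bacterial lipopolysaccharide, was at 9.88, 9.55 and 9.78 in the Yap-on libraries and at 10.53, 7.91 and 9.83 in the Lyz2-high controls. The groups overlapped, with a difference of 0.32 (SE 0.63). The Lyz2-low controls stood at 6.54, 6.57 and 8.43, below the Yap-on libraries. Cd68, a lysosomal membrane protein, was at 6.84, 6.66 and 6.35 and the iron exporter Slc40a1 at 6.06, 5.81 and 5.88. Both were far below the controls, by 4.23 and 4.82.

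The macrophage cysteine protease cathepsin S (Ctss) stood at 2.64, 2.81 and 2.85 in the Yap-on libraries and at 11.19, 10.39 and 10.67 in the Lyz2-high controls. Its promoter is printed as an example of this set, from RefSeq GRCm38.p6 at chr3:95526536-95526835 on the plus strand. Capitals mark GAGGAA or TTCCTC, part of the site of the myeloid factor PU.1, 164 bases before the start and at the start itself.
Ctss: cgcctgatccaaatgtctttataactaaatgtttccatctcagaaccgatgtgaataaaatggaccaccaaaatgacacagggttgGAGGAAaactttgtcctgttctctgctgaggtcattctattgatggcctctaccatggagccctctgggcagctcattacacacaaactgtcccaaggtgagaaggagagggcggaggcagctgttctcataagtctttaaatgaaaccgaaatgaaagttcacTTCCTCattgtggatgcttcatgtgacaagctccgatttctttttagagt
These letters were held by 10 of 20 macrophage genes with a listed promoter, beside 28.3% of all promoters. They were also held by 6 of 17 YAP/TEAD targets (35.3%) and by 3 of 7 promoters listed for the 12 largest differences upward (42.9%).

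The Lyz2-high libraries also held transcripts of other cells of the liver, and in unequal amounts. Antigen-presentation genes of MHC class II were called lower in the Yap-on organoids for 10 of 14 measured members, beside 11.0% of all genes. Like the macrophage count, this and the following cell type counts describe the choice of controls. H2-Aa, a class II chain, stood at 2.44, 2.52 and 2.58 against 11.60, 10.91 and 11.15. Its partner chain H2-Ab1, the invariant chain Cd74 and H2-Eb1 differed by -7.65, -8.34 and -6.67. H2-DMa, which loads peptides, and Irf8, a factor of dendritic cells, differed by -5.28 and -3.82.

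Endothelial genes were called lower for 19 of 24 members, beside 11.0% of all genes, with a list median of -4.86, and 0 were higher. Cdh5, the cadherin between endothelial cells, was even among the controls, at 10.56, 10.67 and 10.56 in hepatocyte 2, wild-type organoid 1 and wild-type organoid 3. Stab2, a scavenger receptor of sinusoidal endothelium, was not, at 7.61, 10.94 and 10.11. Clec4g, Eng, Gpr182 and Dnase1l3 showed the same order, with hepatocyte 2 lowest and wild-type organoid 1 highest. In the Yap-on libraries these genes stood between 2.46 (Dnase1l3) and 3.75 (Eng).

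Lymphocyte genes set the library labelled hepatocyte 2 apart. Its list median was 3.30, against 7.75 and 7.04 in wild-type organoid 1 and 3. Cd3d, a chain of the T cell receptor complex, stood at 2.87 in hepatocyte 2 and at 8.51 and 8.21 in the others, and 2.60 to 2.69 in the Yap-on libraries. The cytotoxic protease Gzma was at 2.93, 7.98 and 8.23, and Nkg7, a protein of cytotoxic granules, at 3.99, 9.95 and 9.70. The pan-leukocyte gene Ptprc, at 9.97, 8.76 and 10.17, did not follow this split, and Cd79b of B cells, at 6.79, 8.42 and 8.59, and the chemokine Ccl5, at 7.67, 10.92 and 10.93, followed it in part. In the fit on the 6 arrays 7 of 18 lymphocyte genes were called lower, and all 18 without hepatocyte 2.

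Marco, a scavenger receptor of Kupffer cells, took another order, at 10.99, 6.62 and 9.62, with wild-type organoid 1 lowest. Neutrophil genes were called lower in 11 of 14 members, beside 11.0% of all genes. Among them were S100a9 (-6.40), Retnlg (-5.40), Cxcr2 (-3.97), Csf3r (-3.55) and Mmp9 (-2.83). Of 5 measured red cell genes only Alas2, an enzyme of haem synthesis, was called lower, at 3.98, 3.88 and 4.06 in the Yap-on libraries against 4.86, 8.51 and 7.38. Klf1, Epb42, Add2 and Slc4a1 differed by -0.93 to -0.09 and were not called. No member of the macrophage, class II, endothelial, lymphocyte, neutrophil or red cell lists passed the limma test against all 6 controls, with adjusted p from 0.115 (Csf1r) upward among the genes named besides Lyz2. At an unadjusted p under 0.05 this test counted 6, 1, 1, 1, 2 and 0 members of these lists. With the spread of all 12 arrays it called 0 members of these lists besides Lyz2. Most of these lists differ between the Lyz2-high and Lyz2-low controls, so the spread within the pooled group is wide. Not passing therefore does not show equal levels.

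**Figure D2:**
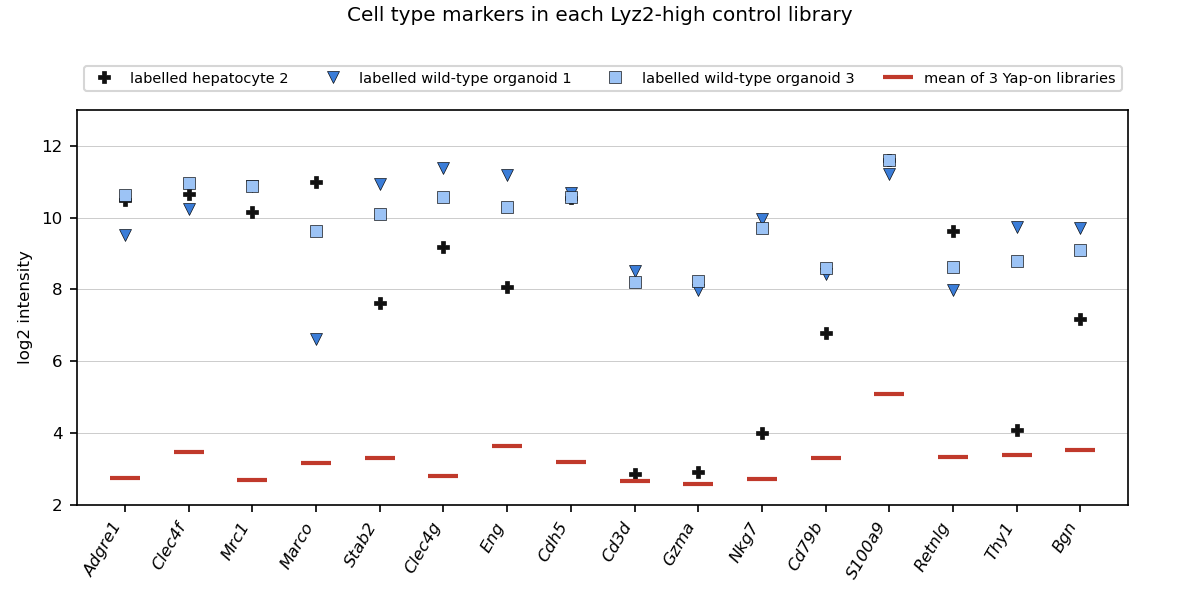
Log2 intensity of 16 cell type markers in each of the 3 Lyz2-high control libraries, with the mean of the Yap-on libraries as a bar. The library labelled hepatocyte 2 lies low for Cd3d, Gzma, Nkg7 and Thy1, wild-type organoid 1 lies lowest for Marco, and Cdh5 is even.

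Mesenchymal genes held a pair that fell against every control. Vimentin (Vim), the intermediate filament of mesenchymal and many cultured cells, stood at 4.66, 4.52 and 4.85 in the Yap-on libraries and at 9.69, 9.91 and 9.93 in the Lyz2-high controls. The Lyz2-low controls were higher still, at 10.90, 10.58 and 10.80. Vim fell against all 6 controls by 5.62 (SE 0.29, adjusted p = 6.57e-06) and Sparc, a matrix glycoprotein, by 6.35 (SE 0.47, adjusted p = 6.22e-05). Both also fell against the Yap-off organoids, by 5.17 and 5.59. Of 20 measured genes of the list 11 were called lower than in the Lyz2-high controls and 0 higher, and these were the 2 that fell against all 6. Decorin (Dcn), biglycan (Bgn), Hgf and Thy1 were 4.38, 5.12, 3.86 and 4.13 lower than in the Lyz2-high controls. For Thy1 the control libraries spread from 4.08 in hepatocyte 2 to 9.74 in wild-type organoid 1.

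Interferon response genes were called lower for 14 of 16 members, beside 11.0% of all genes, and higher for 0, with a list median of -2.35. Irf7, a factor that amplifies the response, was at 3.89, 4.66 and 3.70 against 9.31, 7.74 and 8.46. Ifit3, Cxcl10 and Oas2 differed by -3.72, -3.66 and -3.26. In the Lyz2-low controls Irf7 was at 3.64, 3.70 and 3.48, within or below the Yap-on range. Ifit2, an RNA-binding effector, was low in the Yap-on libraries alone, at 2.64, 2.97 and 2.95 against 5.25 or more in every control, and fell by 3.10 (SE 0.37, adjusted p = 0.00147). Ifitm3 fell by 5.36 (adjusted p = 0.0448), a call lost with the replicate block and without any 1 of 8 libraries (adjusted p from 0.0527 to 0.192). Macrophage genes were also high in the Lyz2-high controls, with the summed levels given above, and their part in the result was not tested.

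**Figure D3:**
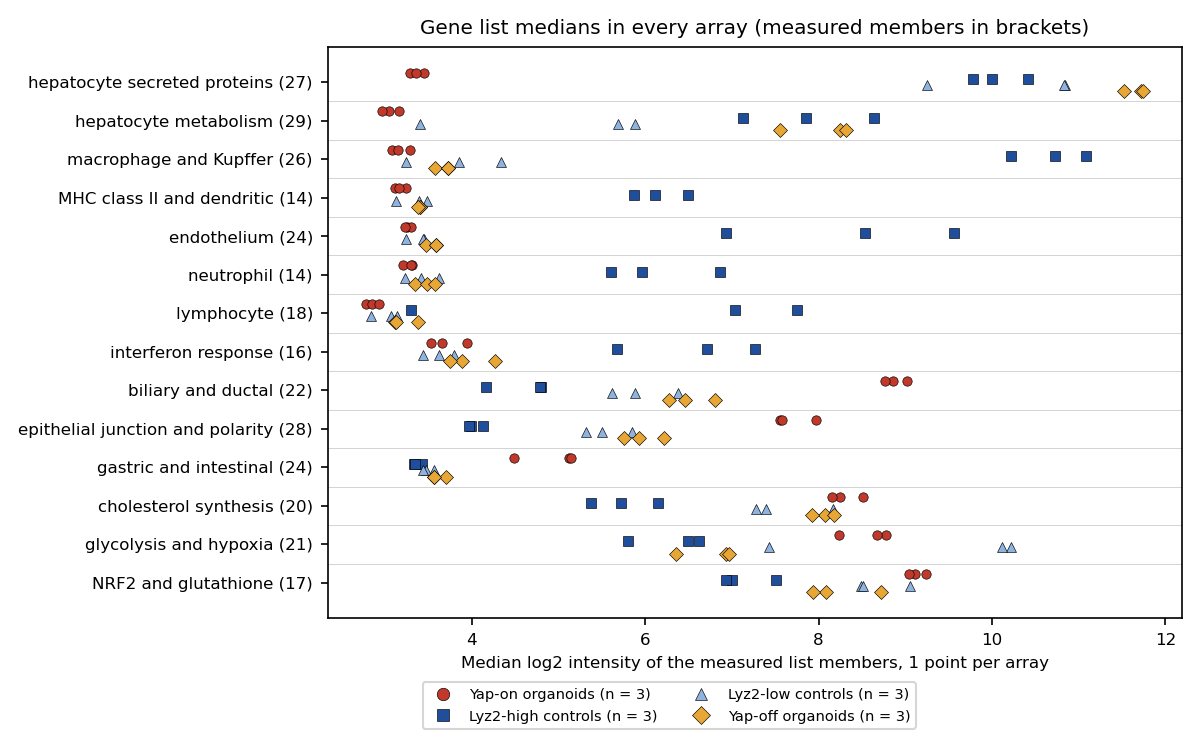
Median log2 intensity over the measured members of 14 gene lists, 1 point per array, for the Yap-on, Lyz2-high, Lyz2-low and Yap-off libraries. For macrophage, endothelial and class II genes the Lyz2-high libraries lie above the other 9, and for secreted liver proteins the 3 Yap-on libraries lie below the other 9.

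Among genes higher in the Yap-on organoids, S100a14 differed most. S100a14, a calcium-binding protein of epithelia, stood at 10.92, 11.02 and 10.73 in the Yap-on libraries and at 2.87, 3.13 and 3.25 in the Lyz2-high controls. This was a log2 difference of 7.81 (SE 0.14), or 224-fold. The Lyz2-low controls were equally low, at 3.15, 2.89 and 3.34, and against all 6 controls S100a14 rose by 7.79 (SE 0.13, adjusted p = 3.61e-08).

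The 12 largest differences upward held genes of 2 kinds. For S100a14, Prap1, Tmem54 and Ctse both sets of controls were low. Prap1, a secreted protein of intestinal epithelium, rose against all 6 controls by 7.19 (SE 0.16, adjusted p = 9.96e-08), Tmem54 by 6.91 and the gastric protease cathepsin E (Ctse) by 7.09 (SE 0.29, adjusted p = 1.44e-06). For Krt7, Krt19, Cpe and Wfdc2 the Lyz2-low controls stood nearer to the Yap-on libraries. Krt7, a keratin of ducts, was at 11.32, 11.34 and 11.07 in the Yap-on libraries, 3.47, 3.70 and 3.35 in the Lyz2-high controls and 9.83, 9.79 and 10.46 in the Lyz2-low controls. Its difference of 7.74 from the Lyz2-high controls (SE 0.14) became 4.48 against all 6 controls and did not pass (SE 1.93, adjusted p = 0.258).

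Krt19, a duct keratin, differed from the Lyz2-high controls by 7.42 (SE 0.20) and did not pass against all 6 controls (4.89, adjusted p = 0.117). Cpe, a carboxypeptidase of secretory granules, and Wfdc2, a secreted epithelial protein, each differed by 6.67 and did not pass (adjusted p = 0.245 and 0.292). Mmp7, a protease of ductal epithelium, rose against all 6 by 7.35 (SE 0.78, adjusted p = 0.000652) with wild-type organoid 2 at 7.20 and the other 5 controls at 3.54 to 5.37. Tmprss2, a membrane protease, rose by 5.58 (adjusted p = 0.00154) and Rbp2, an intestinal retinol-binding protein, by 6.08 (adjusted p = 0.0001). Mesothelin (Msln) rose by 5.72 (adjusted p = 0.0194), a call lost with the replicate block and without each Yap-on library (adjusted p from 0.075 to 0.0957).

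Over all 4195 genes called higher in the fit on the 6 arrays, the 3 Lyz2-low controls all lay on the Yap-on side of the midpoint between both group means in 1946 genes (46.4%). They all lay on the side of the Lyz2-high controls in 662 (15.8%). Of the 2186 genes called lower, the corresponding numbers were 1359 (62.2%) and 270 (12.4%). These shares carry no test and describe how far the differences rest on which control libraries were chosen.

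Of the 12 genes with the widest gap above all 6 controls, each rose by 5.62 to 7.79. Rab25, a GTPase of apical transport, stood at 10.24, 10.08 and 9.91 in the Yap-on libraries and at 3.64 to 4.21 in the 6 controls, and rose by 6.16 (SE 0.14, adjusted p = 9.96e-08). Villin (Vil1), the actin bundler of intestinal microvilli, rose by 6.02 (SE 0.25, adjusted p = 1.55e-06) and Phgr1, known from intestinal epithelium, by 6.13. The glutathione peroxidase Gpx2 rose by 6.11, the integrin chain Itgb6 by 5.62, the GABA receptor subunit Gabrp by 6.36, the adhesion receptor Adgrg7 by 6.59 and the sphingolipid enzyme Degs2 by 5.67. Among all genes 9.05% had every Yap-on library above all 6 controls. These genes were also low in the Yap-off organoids, whose means lay between 2.96 (S100a14) and 4.18 (Gpx2).

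**Figure D4:**
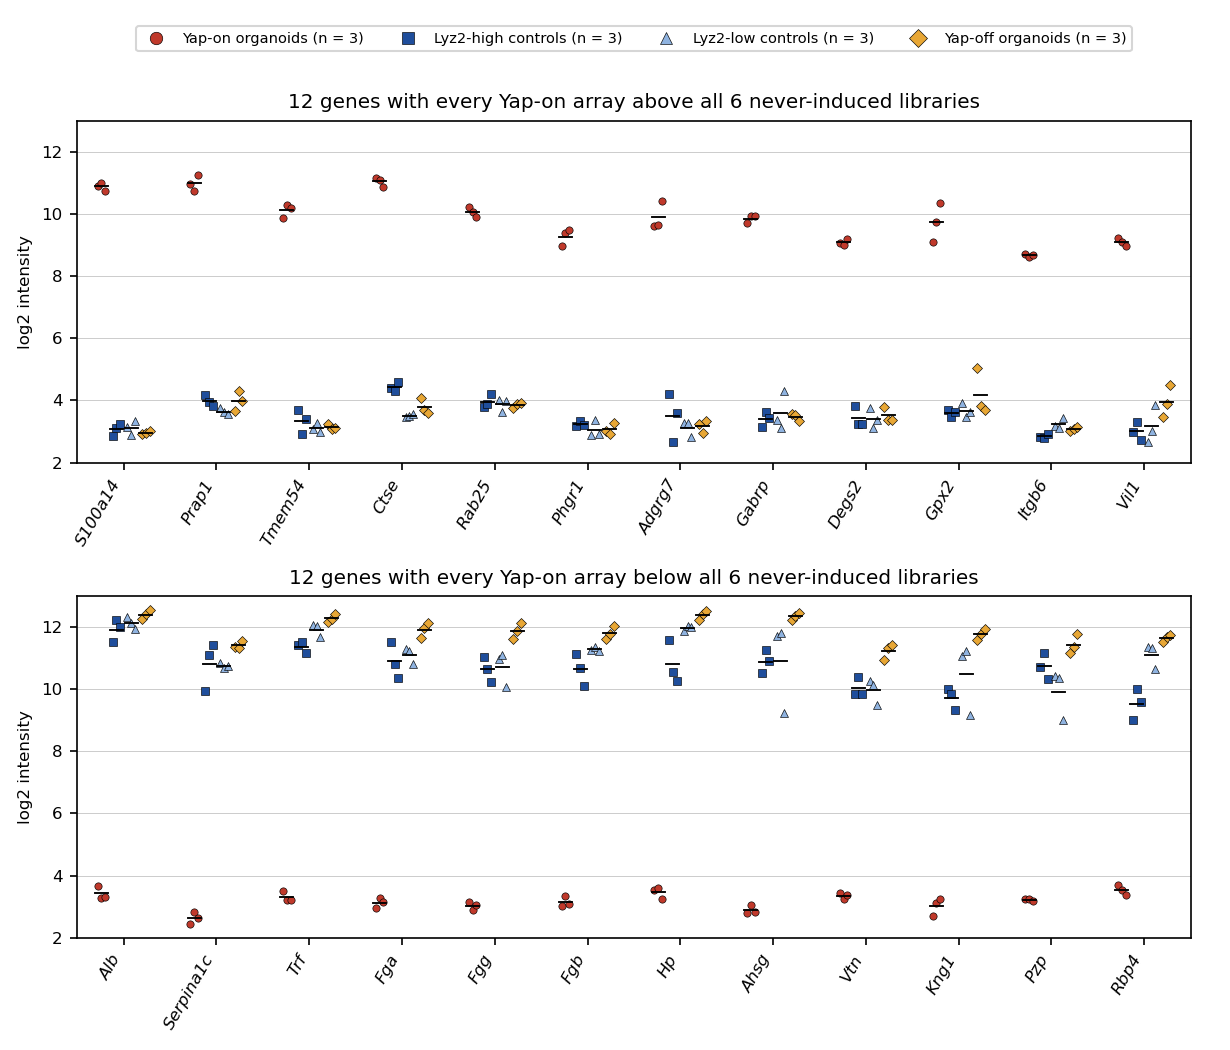
Log2 intensity in each library of the 12 genes with the widest gap above (top) and the 12 with the widest gap below (bottom) all 6 never-induced libraries. Each point is 1 array, and the Yap-on points are separate from all others in both panels.

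Of 28 measured genes of epithelial junctions and polarity, 27 were called higher than in the Lyz2-high controls and 0 lower, with a list median of 3.80. Cldn8, near the lowest level in all libraries, was the exception. Of the 28 genes 16 rose and 0 fell against all 6 controls (10 to 20 when each library was left out). In the test against the Yap-off organoids 19 rose and 1 fell, or 10 and 0 with the spread of all 12 arrays. Claudin 7 (Cldn7), a tight junction protein, stood at 10.21, 10.40 and 10.36 in the Yap-on libraries and at 4.93, 4.67 and 4.83 in the Lyz2-high controls, and rose against all 6 by 4.93 (SE 0.40, adjusted p = 0.000113). Ehf, an epithelial ETS factor, rose by 5.78 (SE 0.59, adjusted p = 0.000494). E-cadherin (Cdh1), desmoplakin (Dsp) and periplakin (Ppl) were 5.22, 5.88 and 5.06 higher than in the Lyz2-high controls, but the Lyz2-low controls stood at 8.87 to 10.38 and none passed against all 6 (adjusted p from 0.267 to 0.416).

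Of 22 measured biliary and ductal genes 18 were called higher and 1 lower, with a list median of 3.88. Tested against all 6 controls, 7 rose and 0 fell. Tested against the Yap-off organoids, 19 rose and 1 fell, or 6 and 0 with the spread of all 12 arrays. Prom1, a surface protein of duct and progenitor cells, stood at 9.56, 9.48 and 9.18 in the Yap-on libraries and at 3.43, 3.23 and 3.52 in the Lyz2-high controls. It rose against all 6 by 5.64 (SE 0.27, adjusted p = 3.98e-06) and against the Yap-off organoids by 6.12 (adjusted p = 1.03e-06). Tspan8, a membrane tetraspanin, and Krt8, a keratin of simple epithelia, were 6.35 and 5.87 higher than in the Lyz2-high controls. The Lyz2-low controls overlapped or nearly reached the Yap-on values of Tspan8, with 10.83 in wild-type organoid 2 against 10.79 in Yap-on 3. The exception that was called lower, Sctr, the secretin receptor, stood below 4 in all 6 arrays.

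Gastric and intestinal genes split into a group that rose and a group that did not. Of 24 measured 11 were called higher and 0 lower than in the Lyz2-high controls, and 8 rose and 0 fell against all 6. Lgals4, a galectin of the gut, stood at 9.75, 10.60 and 10.75 against 4.61, 4.61 and 4.70 and rose against all 6 by 5.24 (SE 0.40, adjusted p = 8.73e-05). Krt20 and Cdh17, an intestinal keratin and cadherin, were 6.23 and 4.95 higher than in the Lyz2-high controls. The Lyz2-low controls were at 8.56 to 9.13 for Krt20, and at 8.33 to 9.73 for Cdh17, above the Yap-on values of 7.42, 8.09 and 8.08. Neither passed against all 6 controls (adjusted p = 0.273 and 0.512).

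Genes of the matrix and basement membrane list moved in both directions. The integrin chain Itga2, a collagen receptor, stood at 8.83, 8.23 and 8.52 in the Yap-on libraries and at 3.86, 4.68 and 3.98 in the Lyz2-high controls, and rose against all 6 by 3.96 (SE 0.36, adjusted p = 0.000232). Lamb3, a laminin chain of epithelial basement membrane, rose by 3.29 (SE 0.60, adjusted p = 0.0146), a call lost with the replicate block and without Yap-on 1 or 2 (adjusted p from 0.0588 to 0.0886). Fibronectin (Fn1) went the other way, at 4.63, 4.63 and 3.91 against 9.09, 8.80 and 7.42. It fell against all 6 by 5.57 (adjusted p = 0.0116), a call lost without each Yap-on library (adjusted p from 0.0544 to 0.0649). Itga3 and Lamc1 were 5.84 and 3.71 higher than in the Lyz2-high controls and did not pass against all 6 (adjusted p = 0.459 and 0.407). Of 20 list members 10 were called higher and 1 lower, and against all 6 controls 6 rose and 1 fell.

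Classical YAP/TEAD targets were more often higher than lower beside the Lyz2-high controls, and 1 of them passed against all 6 controls. Of 23 measured 10 were called higher and 3 lower, beside 4195 and 2186 of all 19937 genes, with a list median of 0.92. Against the Yap-off organoids 9 rose and 6 fell, beside 3817 and 2395 of all 19937 genes. With the spread of all 12 arrays 0 rose and 1 fell, beside 1413 and 870 of all genes. Ccn2, a matricellular protein, stood at 11.04, 10.95 and 11.02 against 5.73, 5.74 and 5.96, a difference of 5.20 (SE 0.11). The Lyz2-low controls held 10.40, 10.06 and 10.92, and Ccn2 did not pass against all 6 (2.87, adjusted p = 0.299). Ankrd1, a muscle ankyrin repeat protein, was at 7.68, 7.95 and 8.57 against 3.46, 3.39 and 3.47, a difference of 4.62 (SE 0.23). In the Lyz2-low controls it was at 10.40, 10.07 and 10.19, above every Yap-on library. It did not pass against all 6 (adjusted p = 0.708) and fell against the Yap-off organoids by 1.26 (adjusted p = 0.007), a call lost with the spread of all 12 arrays (adjusted p = 0.726).

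The promoter of Ankrd1 is shown because, among targets higher than in the Lyz2-high controls, it differed most after Ccn2. It is the RefSeq sequence of GRCm38.p6 at chr19:36119795-36120094 on the minus strand, and capitals mark the letters GGAATG, which the opposite strand reads as CATTCC, the core of the TEAD site, 210 and 123 bases before the start.
Ankrd1: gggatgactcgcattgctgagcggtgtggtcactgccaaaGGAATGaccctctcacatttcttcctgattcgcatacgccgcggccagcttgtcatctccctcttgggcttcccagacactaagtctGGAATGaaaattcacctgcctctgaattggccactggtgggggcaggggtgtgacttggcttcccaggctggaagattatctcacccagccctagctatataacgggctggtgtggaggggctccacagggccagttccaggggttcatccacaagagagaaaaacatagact
These letters were held by 8 of 17 targets with a listed promoter (47.1%), beside 14.7% of all promoters. Of 20 macrophage genes with a promoter 0 held them. Among the 12 largest differences, 4 of 7 promoters of genes higher and 0 of 9 of genes lower held them. Among the 12 genes with the widest gap beyond all controls, the counts were 3 of 10 above and 3 of 9 below. The promoter of Fga, printed above for a gene that fell, also holds GGAATG. These letters were therefore not confined to targets or to genes that were higher. The TEAD letters GGAATG and the PU.1 letters GAGGAA share the run GGAA.

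The other targets that were higher than in the Lyz2-high controls were Gadd45b (3.35), Ccn1 (3.21), Ptpn14 (2.89), the coagulation initiator F3 (2.79), Myof (2.76), Arhgef17 (2.41), Ajuba (2.27) and Mybl1 (0.92). Ccn1 was uneven among the controls, at 7.78 in hepatocyte 2 and at 4.58 and 5.10 in wild-type organoid 1 and 3. Nuak2 and Asap1 were 1.63 and 0.63 lower. Axl, a receptor tyrosine kinase, stood at 5.56, 5.25 and 4.30 against 10.28, 9.18 and 9.85, and at 8.81, 8.55 and 8.87 in the Lyz2-low controls. It was the 1 member of the list that passed against all 6 controls, where it fell by 4.22 (SE 0.43, adjusted p = 0.000512), and it fell against the Yap-off organoids by 2.71 (adjusted p = 0.0012). Axl is also made by macrophages, whose genes were high in the Lyz2-high but not in the Lyz2-low controls, and their part in its level was not tested. Near 0 were Dock5, Nt5e, Tgfb2, Rbms3, Foxf2 and Lats2, at -0.42 to 0.47. Birc5, Amotl2, Crim1 and Amotl1 differed by 1.44, 1.12, 0.85 and -0.78 and were not called.

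**Figure D5:**
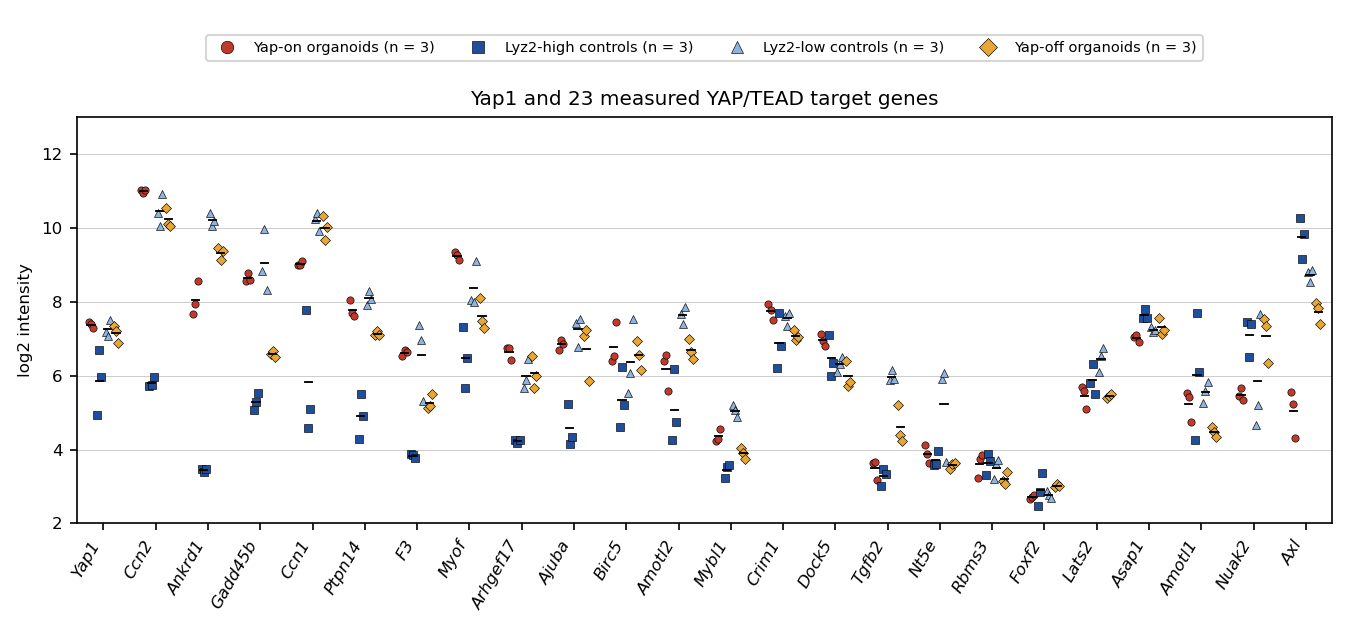
Log2 intensity of Yap1 and 23 YAP/TEAD target genes in each library, ordered by the difference between the Yap-on and the Lyz2-high control libraries. For Ccn2 and Ankrd1 the Lyz2-high points lie below all others, and for Axl the Yap-on points do.

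Hippo pathway genes were called higher for 9 of 22 and lower for 3, beside 21.0% and 11.0% of all genes. Against all 6 controls limma called 0 of them (5 at an unadjusted p under 0.05). Tead1, a DNA-binding partner of Yap, stood at 8.29, 8.16 and 8.0 in the Yap-on libraries and at 3.92, 5.12 and 4.37 in the Lyz2-high controls. The Lyz2-low controls, at 8.41, 8.73 and 9.12, lay above the Yap-on libraries. Wwc1 and Frmd6, upstream activators of the pathway, and Tead4 were 3.68, 2.33 and 2.10 higher than in the Lyz2-high controls. Fat4, a large cadherin, differed by -1.85 and was not called, its controls spreading from 2.99 in hepatocyte 2 to 6.12 in wild-type organoid 1.

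Signalling receptors and ligands included a few that lay above all controls. Wnt7b, a Wnt ligand of epithelia, stood at 8.57, 8.42 and 7.82 in the Yap-on libraries and at 4.66, 4.47 and 4.71 in the Lyz2-high controls, and rose against all 6 by 3.45 (SE 0.23, adjusted p = 3.46e-05). Lgr5, a stem cell receptor and Wnt target, stood at 4.52, 5.12 and 5.16 against 3.15, 3.44 and 3.47 and rose by 1.65 (SE 0.17, adjusted p = 0.000498). Axin2, a feedback inhibitor of Wnt signalling, rose by 1.53 (SE 0.21, adjusted p = 0.00334). Of 18 genes of this list 11 were called higher and 0 lower, and against all 6 controls 6 rose and 0 fell (3 to 7 when each library was left out). Rnf43 and Lgr4 were 3.74 and 1.65 higher than in the Lyz2-high controls and did not pass against all 6.

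For a list of EGF receptor ligands and growth factor receptors 7 of 13 genes were called higher and 0 lower. Erbb2 was at 7.88, 8.08 and 7.74 against 4.16, 4.99 and 4.69 and rose against all 6 by 2.50 (adjusted p = 0.0284), a call lost with the replicate block and without any 1 of 5 libraries (adjusted p from 0.057 to 0.137). Met, the receptor for hepatocyte growth factor, was 4.23 higher than in the Lyz2-high controls, Erbb3 2.89, and the ligands Tgfa, Btc and Hbegf 2.60, 2.59 and 2.18, and none of these passed against all 6. Both Tgfa and Btc fell against the Yap-off organoids, by 2.06 and 1.49, calls lost with the spread of all 12 arrays (adjusted p = 0.22 and 0.169).

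Notch genes were called higher for 4 of 19 and lower for 3, near the shares of all genes (21.0% and 11.0%). The ligand Jag1 stood at 7.52, 7.50 and 7.20 against 3.68, 4.38 and 4.03, and the glycosyltransferase Lfng at 5.53, 5.78 and 5.45 against 8.93, 8.31 and 8.15. Jag2 rose against all 6 controls by 1.98 (adjusted p = 0.0163), a call lost without Yap-on 1 or 2 (adjusted p = 0.0869 and 0.099). Hes6 was 1.80 higher than in the Lyz2-high controls, and the endothelial genes Dll4 and Notch4 were 2.08 and 1.43 lower, with wild-type organoid 1 highest for both.

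Metabolic lists were higher than in the Lyz2-high controls with few calls against all 6. Cholesterol synthesis genes were called higher for 18 of 20 and lower for 0, with a list median of 2.20. In the test against the Yap-off organoids 7 rose and 2 fell, or 0 and 0 with the spread of all 12 arrays. Sqle, which makes squalene epoxide, stood at 8.56, 8.57 and 8.74 in the Yap-on libraries and at 4.42, 4.98 and 4.03 in the Lyz2-high controls. Cyp51, Msmo1, Nsdhl, Fdft1 and Lss were 3.66, 3.28, 2.98, 2.92 and 2.78 higher. Mvd alone rose against all 6 controls, by 1.84 (adjusted p = 0.00881), a call lost without Yap-on 3 (adjusted p = 0.0506), and the number that rose ranged from 0 to 7 when each library was left out.

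Glycolysis and hypoxia genes were called higher for 16 of 21 and lower for 0, with a list median of 1.59. In the test against the Yap-off organoids 19 rose and 0 fell, beside 3817 and 2395 of all 19937 genes. With the spread of all 12 arrays 3 rose and 0 fell. Car9, a carbonic anhydrase induced by low oxygen, stood at 9.22, 8.97 and 8.33 against 4.37, 3.98 and 3.58 and was the 1 member that rose against all 6 (4.78, SE 0.36, adjusted p = 7.26e-05). Egln3, an oxygen sensor, was at 9.91, 9.90 and 9.74 against 2.97, 6.15 and 3.44. The Lyz2-low libraries labelled hepatocyte 1 and 3 had higher Egln3, at 10.25 and 10.11. Vegfa, Pfkl and the glucose transporter Slc2a1 were 2.67, 2.50 and 2.26 higher than in the Lyz2-high controls, and Ankrd37 2.96, without passing against all 6. The list median lay at 8.24 to 8.78 in the Yap-on libraries, at 5.80 to 6.62 in the Lyz2-high controls and at 10.22, 10.11 and 7.43 in hepatocyte 1, hepatocyte 3 and wild-type organoid 2.

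Antioxidant genes under NRF2 were called higher for 10 of 17 and lower for 2. In the test against the Yap-off organoids 10 rose and 3 fell, or 4 and 2 with the spread of all 12 arrays. Gsta4, a glutathione transferase, stood at 11.32, 11.16 and 11.30 against 4.76, 5.16 and 5.63, a difference of 6.08 (SE 0.22). Me1, Slc7a11, Gclc and Cbr3 were 5.55, 4.06, 3.64 and 3.59 higher. In the test against all 6 controls Gpx2 rose, as given above, and Hmox1, a haem-degrading enzyme that macrophages hold in quantity, fell by 3.22 (adjusted p = 0.0212). Hmox1 was named because few passed, and its call was lost with the replicate block and without each Yap-on library (adjusted p from 0.0619 to 0.106).

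DNA replication and mitosis genes were called higher for 12 of 29 and lower for 0, with a list median of 1.04. Rrm2, a subunit of ribonucleotide reductase, stood at 8.41, 8.39 and 8.38 in the Yap-on libraries and at 4.03, 5.52 and 4.29 in the Lyz2-high controls. Cyclin D1 (Ccnd1) was 2.62 higher, Plk1 1.52 and Mcm6 1.48. Ccna2 and Ccnb2 overlapped between the groups, since wild-type organoid 1 held 6.68 and 7.36 of them. The number called ranged from 4 to 19 when each library was left out, and limma called 0 of the 29 against all 6 controls (4 at an unadjusted p under 0.05). In the test against the Yap-off organoids 9 rose and 1 fell, or 0 and 0 with the spread of all 12 arrays.

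The Yap-on and Lyz2-high libraries had low Xist and expressed Y-linked genes, which differed in part between them. Xist, made from the inactive X chromosome of females, stood at 3.14, 3.15 and 3.20 in the Yap-on libraries and at 3.00, 3.30 and 3.26 in the Lyz2-high controls. The Y-linked Eif2s3y was expressed in all 6, at 7.42, 7.13 and 7.40 against 6.81, 6.19 and 7.11, with no overlap between the groups but not called, and Uty differed by 0.12 (SE 0.21). Kdm5d was 1.17 higher in the Yap-on libraries (SE 0.28), the 1 sex-linked gene called, and Usp9y and Zfy1 stood below 3 throughout. In other libraries these genes differed. Xist was at 8.82 and 9.0 in hepatocyte 1 and 3, and averaged 8.89 in the Yap-off organoids, so a difference in sex-linked genes accompanies the tests against all 6 controls, in part, and against the Yap-off organoids.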

How the data were processed

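Total RNA of 12 libraries was amplified with the Nugen Pico WT kit and hybridized to Affymetrix MoGene 1.0 ST arrays, per the labels' protocols. The authors deposited intensities on a linear scale that were made with RMA (background correction, quantile normalization and probe summarization), per the submitters' processing notes, with no version given. Log2 was taken here. Array medians lay between 13.6 and 15.6 and maxima between 7908 and 9588. RMA at background level compresses differences, so folds of genes near the floor are too small.

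Of 34760 array rows, 21640 named 1 gene in the platform's annotation and were kept, while 11799 rows outside it and 1321 rows naming several genes were left out. Where a gene had several rows (954 genes), its brightest row on average stood for it, giving 19937 genes. Of the kept rows 21553 matched RefSeq by gene identifier, which changed 0 symbols, and 87 did not. No filter on low values was applied.

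Groups came from the labels, except that the Lyz2 level chose the 3 Lyz2-high controls. Each comparison was fitted on its own arrays with limma 3.58.1 in R 4.3.3 (lmFit, eBayes), with Benjamini-Hochberg adjustment over 19937 genes and a threshold of 0.05. With 3 arrays against 3, a two-sided exact permutation p cannot go below 0.1, so none was used. The members, gene lists and tests were chosen with earlier results of these data known. Named genes are Lyz2, Cyp2e1 and Yap1, up to 12 each way with the largest difference from the Lyz2-high controls and no overlap, up to 12 each way with the widest gap beyond all 6 controls among those called against them, up to 6 of each list with the largest difference, and all YAP/TEAD, macrophage and sex-linked genes. Clone, predicted, multigene and sex-linked symbols were left out of both rankings. A list's median is that of its members' log2 differences or, per array, levels.

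On simulated data with 200 changed genes among 19937 the fits recovered 47%, 56% and 65% of genes changed by 1 on the log2 scale, and 80%, 77% and 93% of those changed by 2, for the comparisons with the Lyz2-high controls, all controls and the Yap-off organoids. False calls made up 22.1%, 3.62% and 9.2% respectively. Promoters are RefSeq's of GRCm38.p6. Alternatives were renewed quantile normalization, median centring, other choices among a gene's rows, a filter on the lowest 30% of genes, the spread of all 12 arrays, robust eBayes with a trend, adjusted p under 0.01, a 2-fold minimum, the replicate number as a block and leaving out each library. Counts that leave X- and Y-linked genes out of the calls of the same fits, and list counts without each library, were added after seeing the data. Figures were drawn with matplotlib 3.10.9.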

Additional observations from a re-analysis of the deposited data

How the results depend on the processing

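Against the Lyz2-high controls the count of 6381 called genes became 3924 at an adjusted p under 0.01 and 4113 with a 2-fold minimum, and ranged from 4322 (without Yap-on 1) to 8378 (without hepatocyte 2). Against all 6 controls 1053 became 546 under 0.01 and ranged from 537 (without Yap-on 1), 577 (Yap-on 2) and 632 (Yap-on 3) to 2124 (without wild-type organoid 2). Against the Yap-off organoids 6212 became 2283 with the spread of all 12 arrays, 3291 under 0.01 and 2523 with a 2-fold minimum, and ranged from 3763 (without Yap-on 1) to 7853 (without Yap-off 1), with 4065 without Yap-on 2. A stricter threshold or a 2-fold minimum lowers a count by construction. Leaving out a library lowered some counts and raised others, and the causes were not tested. With the replicate number as a block the counts were 5483, 732 and 5404. Same-numbered libraries did not deviate together (r from -0.101 to 0.105), so the numbers were not taken to pair samples. No named difference that was called changed sign. Against all 6 controls in place of the Lyz2-high ones the sign of 4 uncalled differences changed, those of Tgfb2 (0.21 to -1.14), Nt5e (0.15 to -0.60), Amotl2 (1.12 to -0.17) and Rbms3 (-0.02 to 0.04). When all 6 never-induced libraries replaced the Lyz2-high ones, 75 of 204 named genes remained called or uncalled as before and 129 lost their call. The all-gene median difference was -0.04, 0.05 after renewed quantile normalization and 0.04 after median centring. Detection calls were not used, so levels near 3 have no lower bound here.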
